A study of Mus musculus with 12 samples.

Results

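The genes described here are the splicing factors of 5 name families: the SR proteins (Srsf), the heterogeneous nuclear ribonucleoproteins (Hnrnp), the proteins of the small nuclear ribonucleoproteins (Snrp), the subunits of splicing factor 3 (Sf3a and Sf3b) and the pre-mRNA processing factors (Prpf). Members were the symbols whose names begin with Srsf and a digit, Hnrnp, Snrp, Sf3a or Sf3b and a digit, or Prpf and a digit, and that had at least 30 counts summed over the 12 libraries. Of 65 symbols with such names, 63 met that floor, out of 9032 symbols that met it and 19921 symbols in all. The 63 were 10 Srsf, 20 Hnrnp, 11 Snrp, 9 Sf3 and 13 Prpf genes. The 2 symbols under the floor were Hnrnpa1l2-ps2 with 14 counts and Srsf12 with 1 count, and the members closest above it were Prpf40b with 46, Hnrnph3 with 67 and Sf3a2 with 72. The list was built around Prpf19, which was chosen by its own counts in these libraries, known beforehand to be lost after treatment, so its values are given as a description with no test. The question put to the data was whether that loss extended to the other 62 genes.

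The spliceosome removes introns from pre-mRNA. U1 and U2 small nuclear ribonucleoproteins mark the start of the intron and its branch point, the tri-snRNP of U4, U6 and U5 joins them, and the Prp19 complex, of which the ubiquitin ligase PRPF19 is the scaffold, acts as the catalytic centre forms. SR proteins and heterogeneous nuclear ribonucleoproteins bind exons and introns and direct which splice sites are used. Most of these genes are expressed in every cell type and at higher levels in dividing and activated cells.

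The mice were BALB/c wild type with Colon26 tumours, a mouse colon carcinoma line, grown from 200000 cells placed under the skin of the right flank and taken on day 10. Mice of the control group are described by the labels as control only. The minP1 group received 0.08 µg of minP1, a peptide taken from HMGN1 that stimulates immune cells, on day 9. The anti-PD-L1 group received 200 µg of the PD-L1 antibody of clone 10F.9G2, which blocks a checkpoint ligand, on day 4 and again on day 8, and the combination group received both agents, all by the intraperitoneal route. In the labels of the combination group the peptide appears in the sample titles alone, and its treatment field gives a plus sign and the antibody. Each group had 3 libraries, each from the tumour of a separate mouse. Tumours were digested, tumour cells and dead cells were reduced by Percoll density separation, and the remaining cells were profiled as a bulk by reading the 5′ ends of polyadenylated transcripts. In such bulk samples, fewer cells of a type and less RNA per cell cannot be told apart.

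Libraries held 378077 ± 93793 counts for control, 303587 ± 24308 for minP1, 266582 ± 70048 for anti-PD-L1 and 168872 ± 31806 for the combination (mean ± SD, n = 3 each), so depth followed the order of the groups. The 63 genes together took 1.42% ± 0.0622 of the counts for control, 1.39% ± 0.0921 for minP1, 1.33% ± 0.0451 for anti-PD-L1 and 1.34% ± 0.120 for the combination. Other library measures moved with the groups: ribosomal RNA made up 2.43% to 3.72% of control counts and 0.800% to 1.13% of combination counts, and the transcripts Bc1 and Lrrc17 together made up 1.36% to 2.34% and 2.49% to 6.32%. Depth was examined only by a refit with all libraries thinned to the depth of the shallowest, and the part of ribosomal RNA in the results was not tested. Levels are given as CPM, counts scaled to a common library total and adjusted by edgeR's TMM factors (trimmed mean of M-values), and ± after a level is the SD over 3 libraries. Raw counts, given for some genes of few counts, are not scaled for depth, which was lowest in the combination. A log2 difference is given with its standard error and an adjusted p from edgeR's quasi-likelihood test, with Benjamini-Hochberg adjustment over all 9032 symbols and a threshold of 0.05.

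Prpf19 lies on the plus strand of chromosome 19, from 10895231 to 10909559 in GRCm38 (mm10), has 16 exons in its longest annotated form and overlaps no other annotated gene. The 120 bases just before its annotated start are shown beside those of 3 members whose levels changed in the combination and whose upstream window abuts the annotated start and holds no annotated exon: Hnrnpa0 and Hnrnpr, which were lower, and Srsf2, which was higher. The sequences are from RefSeq, assembly GRCm38.p6, and read 5′ to 3′ toward the gene. Capitals mark matches, on either strand, to 5 motifs searched by letters alone: the ETS core CCGGAAG, the CCAAT box CCAAT, the GC box GGGCGG, the E-box CACGTG and the TATA box TATAAA.
Prpf19, chr19:10895111-10895230, plus strand: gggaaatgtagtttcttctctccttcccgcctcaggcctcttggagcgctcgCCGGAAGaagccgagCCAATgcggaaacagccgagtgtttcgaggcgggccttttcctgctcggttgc
Hnrnpa0, chr13:58128557-58128676, minus strand: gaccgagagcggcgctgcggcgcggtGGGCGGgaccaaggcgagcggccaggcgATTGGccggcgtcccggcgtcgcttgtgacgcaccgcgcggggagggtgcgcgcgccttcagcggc
Hnrnpr, chr4:136310822-136310941, plus strand: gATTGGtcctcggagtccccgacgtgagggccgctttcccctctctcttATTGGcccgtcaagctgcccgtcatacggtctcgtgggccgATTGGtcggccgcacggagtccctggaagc
Srsf2, chr11:116853095-116853214, minus strand: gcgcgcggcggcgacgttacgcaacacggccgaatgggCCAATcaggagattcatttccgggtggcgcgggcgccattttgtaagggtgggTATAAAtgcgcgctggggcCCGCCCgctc

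The 4 windows printed each hold a match to CCAAT, but of the 5 lower members with a RefSeq promoter only Hnrnpa0 and Hnrnpr had one within 250 bases, and of the 4 higher members Hnrnph2, Hnrnpul1 and Srsf2 did. Over the 250 bases before the start, CCAAT was found in 47.3% of the 55 members with a RefSeq promoter, in 36.8% of 6872 promoters of tested symbols and in 34.5% of all 27025 promoters. The ETS core of the Prpf19 window was found in 17 of the 55 members (30.9%), against 15.4% of tested symbols and 7.05% of all promoters. GGGCGG was found in 67.3%, 60.6% and 32.9% of these sets, CACGTG in 9.09%, 9.02% and 6.05%, and TATAAA in 9.09%, 6.45% and 13%. A match is a description of letters and not a binding site.

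Prpf19 had 34, 24 and 25 counts in the 3 control libraries, 7, 5 and 6 in the minP1 libraries, 2, 2 and 3 in the anti-PD-L1 libraries and 0 in each combination library. As levels these were 74.6 ± 20.9 CPM for control, 20.3 ± 3.95 for minP1, 9.53 ± 2.24 for anti-PD-L1 and 0 for the combination. No library of a treated group reached the lowest control library, and the 4 groups did not overlap. The level was 3.56-fold lower in minP1 than in control (95% counting interval 2.12 to 6.29) and 7.77-fold lower in anti-PD-L1 (3.61 to 19.9). In the combination it was at least 11.8-fold lower than in control, at least 3.32-fold lower than in minP1 and at least 1.52-fold lower than in anti-PD-L1, with the group at 0 set to a floor of 3 counts over its 3 libraries. Intervals and floors cover counting error only. Among the 2256 symbols with at least as many control counts as Prpf19 (83), Prpf19 was the only one with 0 counts in the combination, and none of the other 62 splicing factors was at 0 in all 3 combination libraries. Prpf19 was chosen for this loss, so its values and its place among those symbols are a description only.

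**Figure D1:**
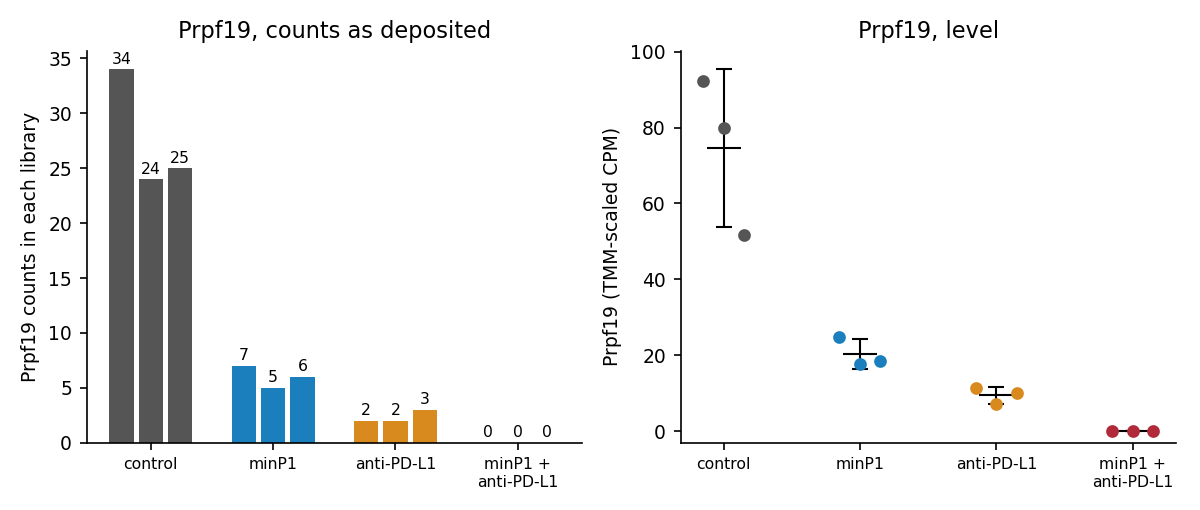
Prpf19 in each of the 12 libraries, by group, as counts (left, 1 bar per library) and as TMM-scaled CPM (right, points with the mean and SD of 3), both on linear axes. The combination libraries all lie at 0, and no 2 groups overlap.

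After minP1 alone, none of the other 62 splicing factors differed from control by edgeR's test, where 0% of all 9032 symbols did. DESeq2 and limma voom also gave 0 of 62, and no member had an unadjusted p under 0.05 (6.16% of all symbols did). Their log2 differences ran from -0.76 to 0.76 with a median of -0.04, against 0.00 over all symbols, and 36 of 62 were below 0 (49.6% of all symbols). The lowest was Prpf38a, a protein of the spliceosome's B complex, at -0.76 ± 0.49 (adjusted p 0.874), and among the highest were Hnrnpd, which binds AU-rich mRNA, at 0.48 ± 0.25 (adjusted p 0.837) and Sf3b3, a U2 subunit, at 0.48 ± 0.26 (adjusted p 0.837). The 3 minP1 libraries lay wholly below control for 2 members, Prpf38a and Snrpd1, and wholly above it for 1, Sf3a2 (6.34% and 5.45% of all symbols).

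After anti-PD-L1 alone, again 0 of the 62 passed by edgeR, where 0.686% of all symbols did (0.421% higher, 0.266% lower), and DESeq2 and limma voom gave 0 as well. At an unadjusted p under 0.05 there were 11 of 62 (17.7%), against 13.8% of all symbols. The median log2 difference was -0.17 over the 62 and -0.04 over all symbols, with 38 of 62 below 0 (52.6% of all symbols). The genes with the smallest p-values were Hnrnpr at -1.25 ± 0.38 (adjusted p 0.109), the U2 subunit gene Sf3b5 at -1.18 ± 0.41 (adjusted p 0.16), Hnrnpa0 at -1.01 ± 0.37 (adjusted p 0.185) and the Sm ring gene Snrpd3 at -0.82 ± 0.31 (adjusted p 0.202). The antibody libraries lay wholly below control for 9 members and wholly above for 8 (11.1% and 9.31% of all symbols).

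In the combination, 10 of the 62 genes differed from control (16.1%), 6 lower and 4 higher, where 23.8% of all symbols differed, 12.7% lower and 11% higher. The lower genes were Sf3b5, Hnrnpa0, Hnrnpr, Snrpa1, Snrpc and Snrpe, and the higher genes were Srsf2, Hnrnph2, Hnrnpul1 and Srsf5. The members had a median of 473.5 summed counts, against 112 over all symbols. At an unadjusted p under 0.05 there were 21 of 62 (33.9%, against 35.8%). The median log2 difference was -0.24 (-0.25 with Prpf19 at its bound), against -0.19 over all symbols, and 42 of 62 were below 0 (56.7% of all symbols). The range over the 62 was -2.39 to 1.36. The 3 combination libraries lay wholly below control for 16 members and wholly above for 9 (23.5% and 15.9% of all symbols). With all libraries thinned to the depth of the shallowest, 7 genes were lower and 2 higher.

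**Figure D2:**
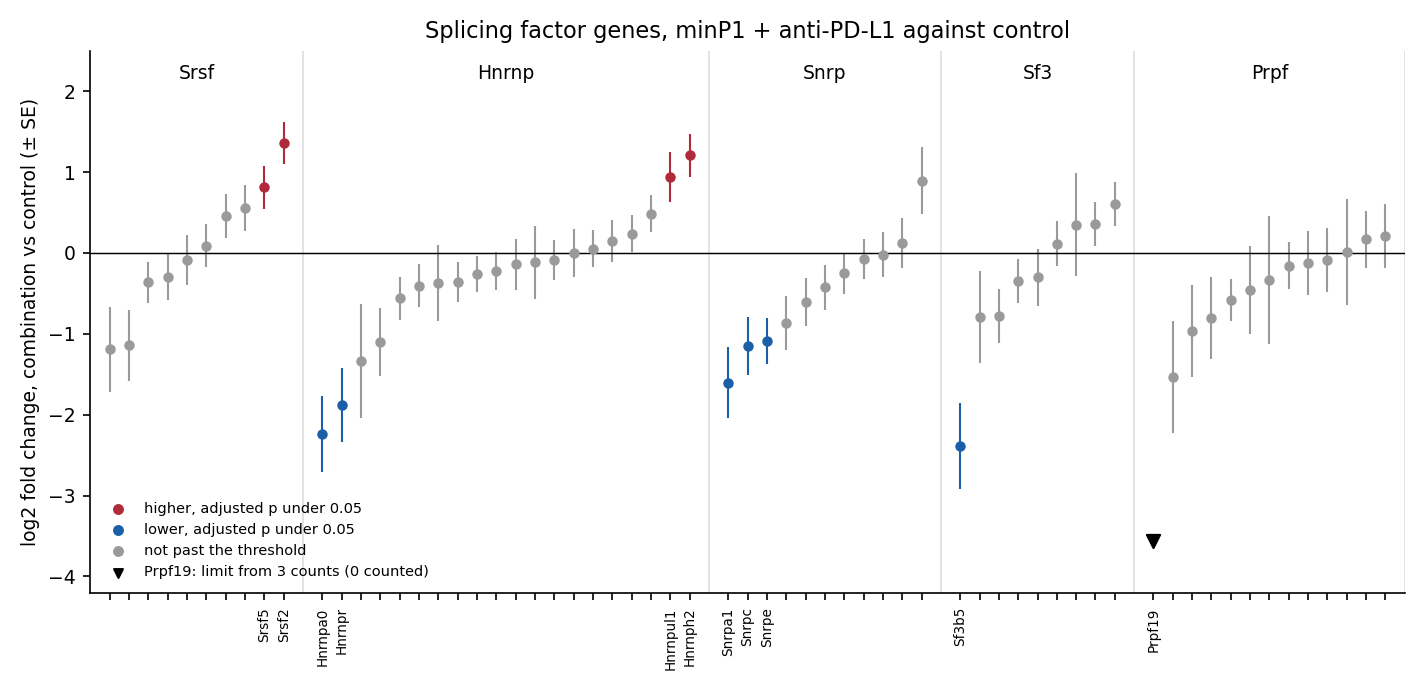
Log2 difference of each of the 62 splicing factors in the combination against control, by family, with bars of 1 standard error. Filled colours mark the 10 genes with an adjusted p under 0.05, which lie on both sides of 0, 6 below and 4 above, and the triangle marks Prpf19 at its bound; these genes are labelled.

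The core snRNP genes among the lower members belong to U1, U2 and the Sm ring. Sf3b5 encodes a small subunit of SF3B, the U2 module that holds the branch point, and is a gene of 1 exon on chromosome 10 (13005343 to 13009183, plus strand). It had 32, 36 and 28 counts for control, 23, 12 and 30 for minP1, 5, 9 and 15 for anti-PD-L1 and 0, 4 and 4 for the combination. All combination libraries were below all others, and the difference from control was -2.39 ± 0.53 on the log2 scale (adjusted p 0.00134). Snrpa1, whose protein U2-A′ belongs to the U2 particle (chromosome 7, 66059003 to 66074587, plus strand), had 42, 37 and 46 counts for control, 31, 25 and 28 for minP1, 6, 21 and 22 for anti-PD-L1 and 0, 8 and 10 for the combination. Its combination libraries were below every control and minP1 library, and the anti-PD-L1 group overlapped them. The difference was -1.61 ± 0.44 (adjusted p 0.00773).

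Snrpe encodes a protein of the Sm ring that all major snRNPs but U6 carry (chromosome 1, 133603871 to 133610291, minus strand). Its level was 551, 293 and 340 CPM in the control libraries, 401, 381 and 366 for minP1, 265, 352 and 399 for anti-PD-L1 and 211, 137 and 212 for the combination. The 3 combination libraries were the lowest of the 12, and the difference from control was -1.09 ± 0.28 (adjusted p 0.00521). Without control replicate 1, the highest library, the adjusted p was 0.0501. At its start, 85 bases of Snrpe are identical to sequence of another annotated gene, Snrpert, which is not among the counted symbols. The part of reads from Snrpert in the Snrpe counts was not tested. Snrpc, the U1 protein that contacts the start of the intron (chromosome 17, 27838150 to 27851968, plus strand), was at 271, 150 and 155 CPM for control, 138, 117 and 172 for minP1, 63.4, 138 and 213 for anti-PD-L1 and 109, 68.4 and 84.7 for the combination. Its combination libraries lay below every control library but not below every anti-PD-L1 library, and the difference was -1.15 ± 0.36 (adjusted p 0.0192). That call was lost without control replicate 1, combination replicate 2 or combination replicate 3 and with the level of Bc1 and Lrrc17 as a covariate, and 1 annotated start of Snrpc lies in sequence repeated at other genes.

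Among the heterogeneous nuclear ribonucleoproteins, 2 were lower and 2 higher. Hnrnpa0, which binds AU-rich elements in mRNA and is a gene of 1 exon on chromosome 13 (58125879 to 58128556, minus strand), had 39, 30 and 55 counts for control, 41, 14 and 41 for minP1, 4, 20 and 17 for anti-PD-L1 and 2, 4 and 5 for the combination. As levels, control was at 106 ± 6.81 CPM and the combination at 21.6 ± 5.51, a log2 difference of -2.24 ± 0.47 (adjusted p 0.000778). The combination libraries overlapped the lowest anti-PD-L1 library and no control or minP1 library. Hnrnpr, an RNA-binding protein of the hnRNP particle (chromosome 4, 136310942 to 136359447, plus strand), had 26, 24 and 47 counts for control, 21, 13 and 34 for minP1, 7, 7 and 12 for anti-PD-L1 and 2, 3 and 6 for the combination, a log2 difference of -1.88 ± 0.45 (adjusted p 0.00284). As for Hnrnpa0, its combination libraries overlapped anti-PD-L1 and no control or minP1 library.

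Hnrnph2, which binds runs of G (chromosome X, 134601179 to 134607060, plus strand), was at 141, 153 and 136 CPM for control, 153, 215 and 123 for minP1, 265, 163 and 213 for anti-PD-L1 and 297, 359 and 333 for the combination. All combination libraries were above the other 9, and the log2 difference from control was 1.21 ± 0.27 (adjusted p 0.00138). Its start lies near that of Gla, which rose as well, from 29.0 ± 14.3 to 75.6 ± 36.2 CPM (log2 difference 1.25, adjusted p 0.0411), and reads of the 2 genes may not be separable. Hnrnpul1, an RNA-binding protein related to hnRNP U (chromosome 7, 25721165 to 25754757, minus strand), was at 62.4, 69.9 and 86.6 CPM in the control libraries and at 125, 148 and 148 in those of the combination, a rise of 0.94 ± 0.31 (adjusted p 0.024). Its call was lost without control replicate 1 or 2, without combination replicate 2 or 3, at equal depth, with no filter on low counts and with the level of Bc1 and Lrrc17 as a covariate.

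The SR protein Srsf2, also known as SC35, which binds exonic enhancers (chromosome 11, 116849901 to 116853094, minus strand), had the largest rise of the 62 genes. It was at 551, 346 and 375 CPM for control, 433, 614 and 366 for minP1, 766, 550 and 516 for anti-PD-L1 and 1117, 1249 and 905 for the combination. The combination libraries were above the other 9, and the log2 difference from control was 1.36 ± 0.26 (adjusted p 0.000247). Srsf2 overlaps Mfsd11 and Mettl23 on the other strand, and whether counting used strand is not given in the sources used here. Mfsd11 was at 88.7 ± 24.2 CPM in control and 56.8 ± 25.9 in the combination (adjusted p 0.223), and Mettl23 at 16.1 ± 2.63 and 3.80 ± 6.58 (adjusted p 0.171). The part of reads from these genes in the Srsf2 counts was not tested. Srsf5, an SR protein of the same family (chromosome 12, 80945504 to 80950507, plus strand), was at 258, 213 and 272 CPM for control, 266, 254 and 289 for minP1, 219, 391 and 396 for anti-PD-L1 and 352, 382 and 566 for the combination, and rose by 0.81 ± 0.26 (adjusted p 0.0236). The combination libraries of Srsf5 overlapped those of anti-PD-L1 only, and its call was lost without control replicate 2 or combination replicate 3, at equal depth and with no filter on low counts.

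**Figure D3:**
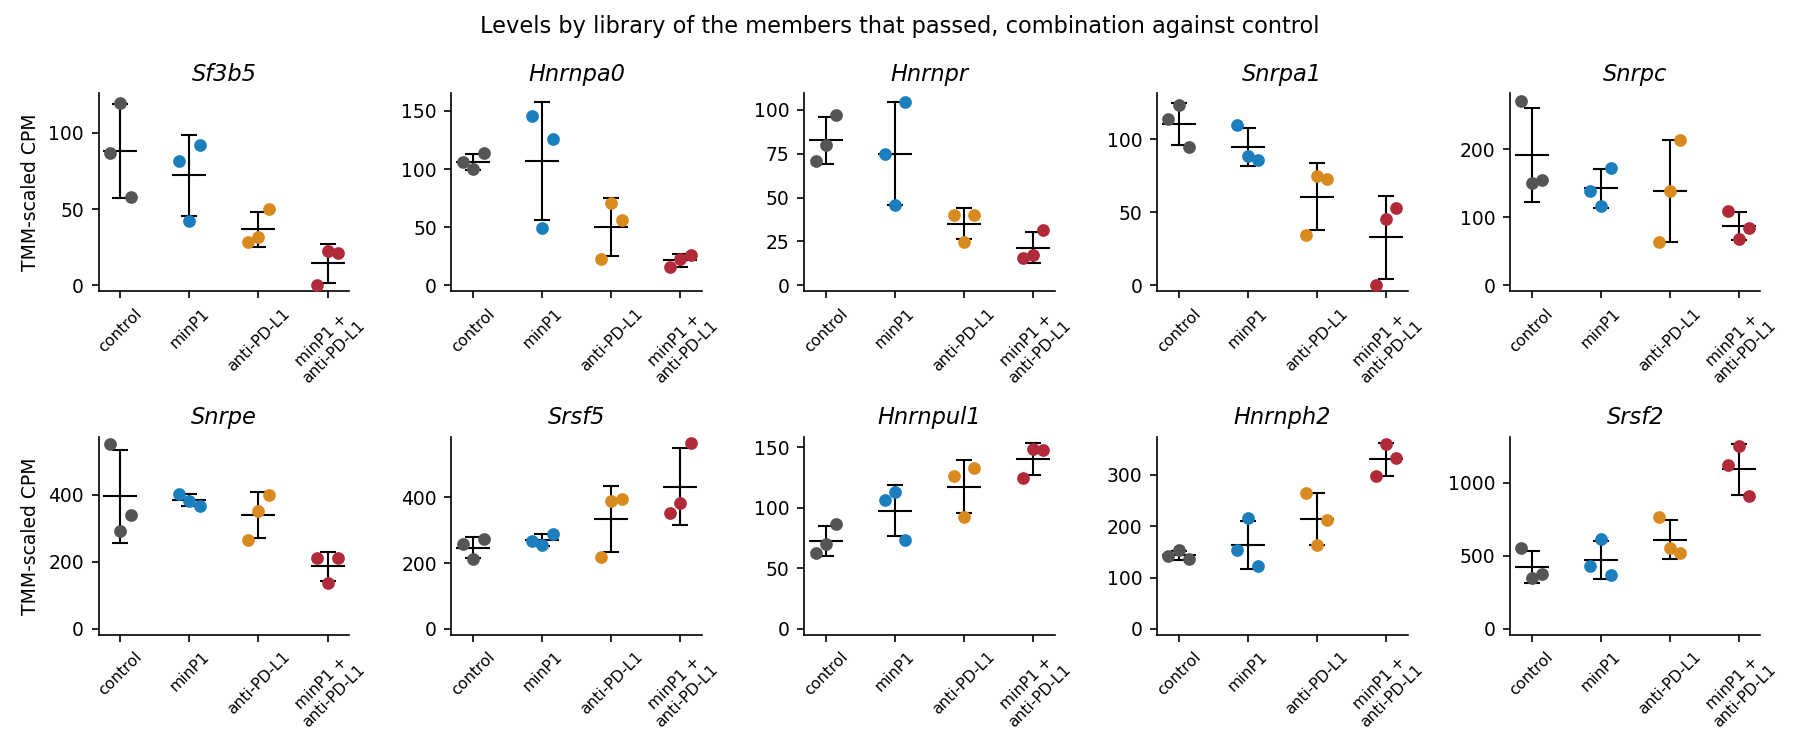
Level (TMM-scaled CPM) in each library of the 10 splicing factors that differed between the combination and control, 1 panel per gene, with the mean and SD of 3 libraries. The 6 lower genes are followed by the 4 higher ones, and in each panel the 3 combination libraries lie beyond all 3 control libraries.

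Of the 22 alternative analyses run, the call of Sf3b5 was made in all. The calls of Hnrnpa0, Hnrnph2, Hnrnpr, Snrpa1 and Srsf2 were lost in 1, the fit with the level of Bc1 and Lrrc17 as a covariate, in which their adjusted p-values were 0.106, 0.118, 0.17, 0.0878 and 0.0509. The calls of Snrpc and Hnrnpul1 were lost in that fit too. It called 4 of 62 members, 1 higher and 3 lower: Sf3b5, Snrpe and Srsf5 of the 10, and Srsf9, which had not passed without the covariate. With replicate 2 of minP1 and replicate 1 of anti-PD-L1 both left out, which had the highest Bc1 and Lrrc17 share of their groups, 12 of 62 passed.

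Over all symbols the share that passed was 23.8% (12.7% lower, 11% higher) and the median was -0.19, and the families are given beside these values with no test between them. The 12 Prpf genes other than Prpf19 had 0 calls in the combination, with a median log2 difference of -0.25, and included Prpf8, the U5 protein at the catalytic centre, at 0.21 ± 0.40 (adjusted p 0.741), and Prpf31, which joins U4 and U6 to U5, at -1.53 ± 0.69 (adjusted p 0.106). Of 9 Sf3 genes 1 passed, and Sf3b1, the largest SF3B subunit, was at 0.35 ± 0.27 (adjusted p 0.363). Of 11 Snrp genes 3 passed, all lower, with a median of -0.43. Of 20 Hnrnp genes 4 passed with a median of -0.18, and the most abundant, Hnrnpa3, was at 1163 ± 91.1 CPM in control and 969 ± 93.7 in the combination, a log2 difference of -0.26 ± 0.22 (adjusted p 0.413). Of 10 Srsf genes 2 passed, both higher, with a median of 0.00.

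Summed levels by family were also described. The 10 Srsf genes together reached 2097 ± 189 CPM for control, 2195 ± 171 for minP1, 2307 ± 154 for anti-PD-L1 and 2907 ± 190 for the combination, whose 3 libraries lay above the other 9. Srsf2 and Srsf5 were the Srsf genes that had passed in these same values, so leaving them out was bound to reduce that rise. Without them the Srsf sum was 1425 ± 62.7 CPM in control and 1383 ± 139 in the combination, and the libraries of these groups overlapped. The 12 Prpf genes without Prpf19 reached 983 ± 160, 992 ± 106, 876 ± 59.1 and 780 ± 82.4 CPM, with combination and control overlapping only at the lowest control library. The Snrp sum was 2797 ± 702 in control, where 1 library stood at 3607, and 2180 ± 147 in the combination. Its 3 combination libraries, at 2039, 2332 and 2170 CPM, lay below the other 9, of which the lowest was a minP1 library at 2365. All 62 genes together had group means from 13816 ± 656 CPM in the combination to 14212 ± 987 in minP1, and the libraries of the 4 groups overlapped.

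**Figure D4:**
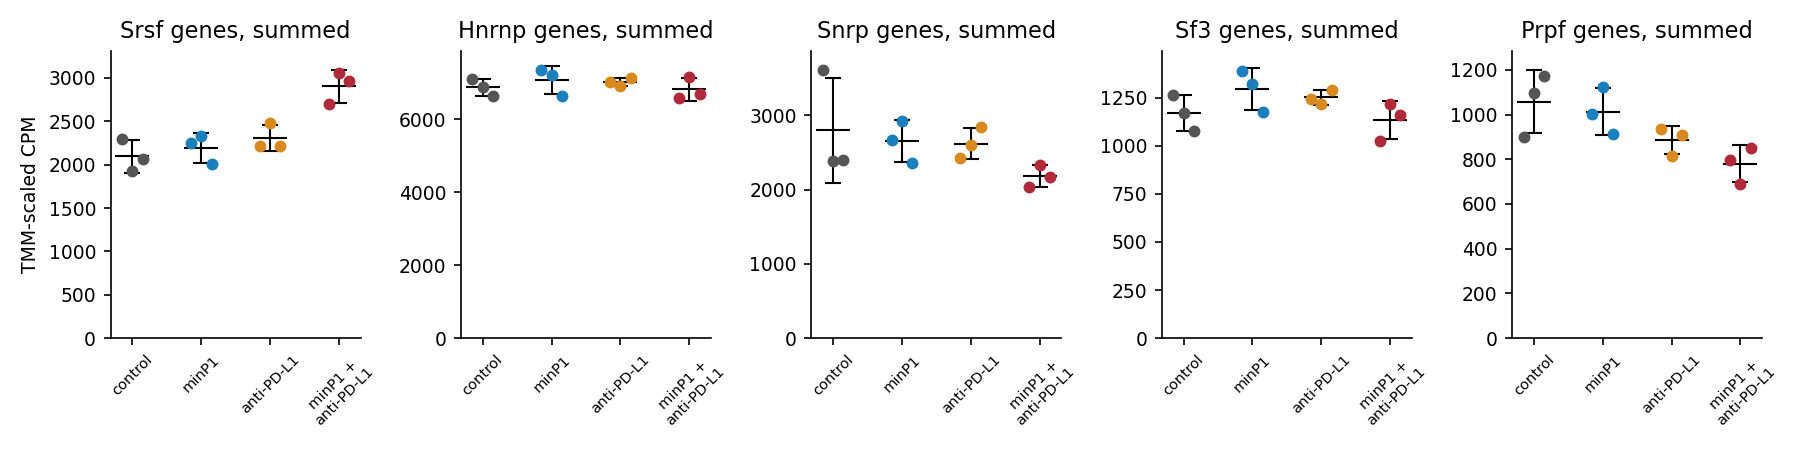
Summed level (TMM-scaled CPM) of each family in each library, with the mean and SD of 3 libraries per group; the Prpf panel includes Prpf19. The Srsf sum of the combination, 2695 to 3062 CPM, is above all other libraries, and its Snrp sum, 2039 to 2332 CPM, is below them. Without Srsf2 and Srsf5, the Srsf genes that had passed in these same values, the Srsf sum is 1383 ± 139 against 1425 ± 62.7 in control.

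Against minP1 alone, the combination differed for 7 of the 62 genes (11.3%), 5 lower and 2 higher, where 11.8% of all symbols differed, 6.63% lower and 5.15% higher. All 7 were among the 10 that differed from control, a comparison that shares the combination libraries. Hnrnpa0 was lower by 2.25 ± 0.48 on the log2 scale (-2.25, adjusted p 0.00182), Sf3b5 was at -2.14 ± 0.55 (adjusted p 0.00932), Hnrnpr at -1.75 ± 0.47 (adjusted p 0.0122), Snrpa1 at -1.39 ± 0.45 (adjusted p 0.0395) and Snrpe at -1.04 ± 0.28 (adjusted p 0.0145). Srsf2 was higher by 1.21 ± 0.26 (adjusted p 0.00189) and Hnrnph2 by 1.02 ± 0.27 (adjusted p 0.012). The median over the 62 was -0.26, against -0.17 over all symbols, and 40 of 62 were below 0 (57.3% of all symbols). The count was 3 without minP1 replicate 3, 4 without minP1 replicate 1, combination replicate 1 or combination replicate 2, and 10 without minP1 replicate 2, and it was 3 with the Bc1 and Lrrc17 covariate.

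Against anti-PD-L1 alone, the combination gave 0 of 62 by edgeR, where 3.81% of all symbols passed (1.42% higher, 2.39% lower), while DESeq2 gave 1, Srsf2, and limma voom 0. At an unadjusted p under 0.05 there were 5 of 62 (8.06%, against 18.1%), 39 of 62 log2 differences were below 0 (55.8% of all symbols), and the combination libraries lay wholly below anti-PD-L1 for 9 members and wholly above for 6 (14% and 8.65% of all symbols). The smallest p-values were those of Srsf2 at 0.84 ± 0.26 (adjusted p 0.0573), Snrpe at -0.88 ± 0.29 (adjusted p 0.0833) and Hnrnph2 at 0.65 ± 0.27 (adjusted p 0.189). Leaving out control replicate 1 or anti-PD-L1 replicate 1 gave 2 calls, and leaving out minP1 replicate 2 or combination replicate 3 gave 1.

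The interaction asked whether the peptide's difference was larger or smaller in mice that had the antibody. It passed for 0 of 62 genes and for 0% of all symbols by edgeR, and DESeq2 and limma voom gave 0 of 62 too. At an unadjusted p under 0.05 there were 2 of 62 (9.19% of all symbols), and 36 of 62 values were below 0 (58.4% of all symbols). Snrpe was at -0.83 ± 0.38 (adjusted p 0.516), Prpf8 at -1.10 ± 0.53 (adjusted p 0.529) and Hnrnpul2, a relative of hnRNP U, at -1.10 ± 0.55 (adjusted p 0.553). A test for any difference among the 4 groups passed for 7 of 62 (11.3%), against 13.9% of all symbols, and for 4 without combination replicate 2 and 1 with the covariate.

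**Figure D5:**
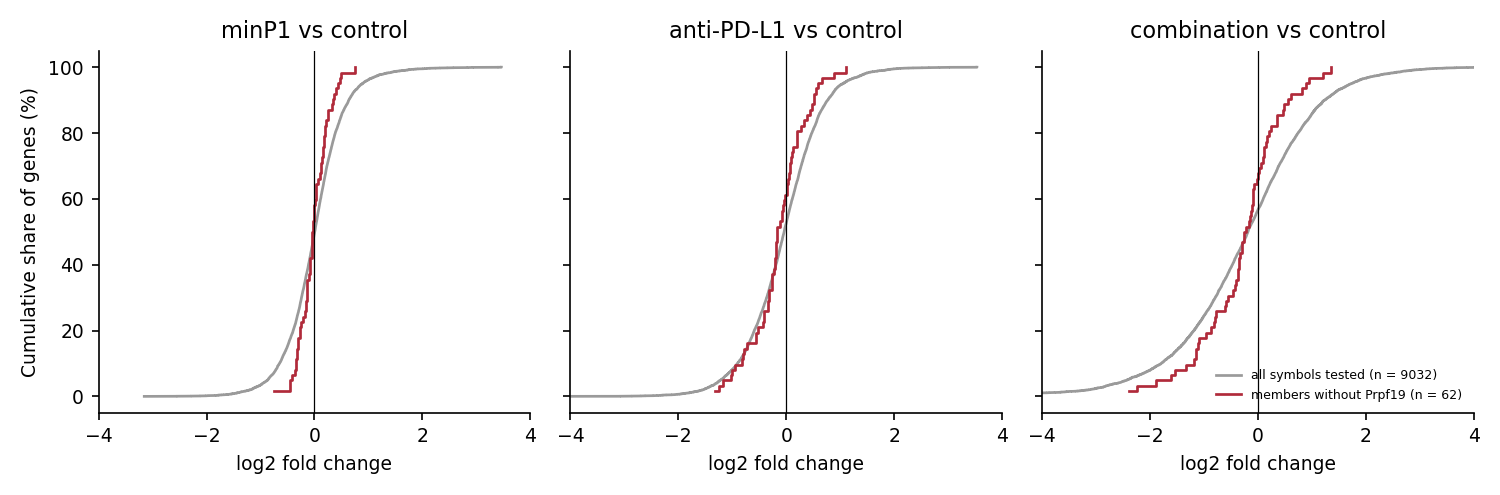
Cumulative share of genes by log2 difference against control, for the 62 splicing factors and for all 9032 symbols tested, 1 panel per treatment, with the axis limited to -4 to 4. The medians of the splicing factors, -0.04, -0.17 and -0.24, lie below those of all symbols, 0.00, -0.04 and -0.19.

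The group means of 18 of the 62 genes fell in the order control, minP1, anti-PD-L1, combination, as those of Prpf19 did (29%, against 16.8% of all symbols), and those of 6 rose in that order (9.68%, against 12.3%). None of the 62 did so with no overlap between neighbouring groups, which 11 of 9032 symbols did in falling and 7 in rising. As a description over the same 12 libraries, which share their depth with the groups, the members whose log2 CPM followed Prpf19 most closely were Hnrnpr (Pearson r 0.83), Sf3b5 (0.80) and Hnrnpa0 (0.79). They ranked 195, 337 and 417 among the 9031 other symbols, and the median r was 0.27 over the members and 0.14 over all symbols.

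Genes of the splicing machinery outside the name rule were taken from 8 lists of 111 genes, of which 106 could be tested. In the combination 27 passed against control (25.5%, against 23.8% of all symbols), 19 lower and 8 higher, and the median log2 difference was -0.20. None passed after minP1 or anti-PD-L1 alone, where 0% and 0.686% of all symbols did, by edgeR's test. Of the 16 genes listed as the Prp19 complex and its partners, 15 could be tested. Of these, 3 were lower and 0 higher (12.7% and 11% of all symbols), with a median of -0.43, against -0.19 over all symbols. Ppil1, which encodes a prolyl isomerase, went from 54.8 ± 20.5 CPM in control to 7.33 ± 6.36 in the combination, on 61 and 4 counts (-2.68 ± 0.74, adjusted p 0.00869). That call was lost at equal depth and with the Bc1 and Lrrc17 covariate. Snw1, another gene of that list, was at 159 ± 13.4 and 87.5 ± 14.9 CPM (-0.84 ± 0.30, adjusted p 0.0422), a call held in 9 of 22 alternatives. Plrg1, which binds PRPF19 and CDC5L, went from 34 control counts to 3 combination counts, a ratio of 4.84 (95% counting interval 1.52 to 24.6). Its edgeR call (adjusted p 0.0413) was held in 12 of 21 alternatives. The calls of Snw1 and Plrg1 were both lost whenever any single control or combination library was left out, and at equal depth. Cdc5l itself was at -0.61 ± 0.29 (unadjusted p 0.0427, not past the threshold once adjusted) and Bcas2, a core subunit of the Prp19 complex, at -0.43 ± 0.27 (adjusted p 0.249).

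Other steps of splicing held genes that moved in both directions in the combination. U2af2, which recognises the end of the intron, went from 48.7 ± 8.96 CPM in control to 8.03 ± 2.45 in the combination, on 55 and 4 counts (-2.51 ± 0.61, adjusted p 0.00326). With the Bc1 and Lrrc17 covariate its adjusted p was 0.088. Ddx39b, the helicase that helps load U2, rose from 267 ± 62.3 to 550 ± 32.9 CPM, on 307 and 272 counts (1.04 ± 0.25, adjusted p 0.00271). The helicase gene Dhx38 had 53 counts and 1 count, a ratio of 22.6 (3.89 to 910), and Ddx23, the U5 helicase, had 26 and 0, at least 3.70-fold lower. Of the 5 genes listed as the exon junction complex, 2 were lower and 0 higher (12.7% and 11% of all symbols), with a median of -1.32. These were Magoh, on 30 control and 2 combination counts, and Magohb, on 70 and 12. Their calls were held in 13 of 21 and 11 of 22 alternatives. Among regulators, Rnps1, an exon junction and SR-related protein, rose from 270 ± 51.7 to 983 ± 110 CPM (1.86 ± 0.25, adjusted p 3.31e-06). Mbnl1, a regulator of alternative exons, rose from 412 ± 34.8 to 1244 ± 147 CPM (1.59 ± 0.26, adjusted p 3.96e-05). Clk3, a kinase of SR proteins, rose by 2.16 ± 0.41 (adjusted p 0.000233), and Nono, a paraspeckle protein, was lower, from 160 ± 19.6 to 37.0 ± 9.74 CPM (-2.11 ± 0.39, adjusted p 0.00018).

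Levels of cell type markers also differed between the groups. In the combination against control, 11% of all symbols were higher and 12.7% lower, the shares to set beside each count below. Summed levels of 14 macrophage and monocyte markers ran from 1281 to 1408 CPM in control and from 2304 to 4313 in the combination, and of the 12 tested 4 were higher and 1, Lyz2, was lower. Sums of 10 neutrophil markers ran from 300 to 383 and from 644 to 680, and of the 6 tested 5 were higher and 1, Cxcr2, was lower. Retnlg was at 0 in the combination, and Ly6g was at 0 both there and in control. Sums of 10 T cell markers ran from 29.96 to 68.1 and from 171 to 234. Only 2 of them could be tested, Cd2 and Thy1, and both were higher, but Thy1 was also on the list of fibroblast markers. Of 8 erythroid markers 4 of 6 tested were lower in the combination and 0 higher (12.7% and 11% of all symbols), with sums of 1341 to 2550 CPM in control and 815 to 2173 in the combination. Epithelial and carcinoma markers had few counts in all groups, with sums of 23.3 to 35.3 CPM in control and 23.4 to 85.5 in the combination. These were 36 counts over the control libraries, where Krt18 and Cldn3 were at 0, and 23 over the combination, where Vil1 and Muc1 were at 0. Of 8 fibroblast markers tested 2 were higher and 2 lower, and of 2 NK cell markers tested 0 passed. Of 3 dendritic cell markers tested 2 were higher, while Zbtb46, Itgax, Cd209a and Ccr7 were at 0 in the combination. For B cells and for endothelial cells only 1 marker each could be tested, and both were higher. Of 20 proliferation genes 6 were lower in the combination and 0 higher (12.7% and 11% of all symbols), with sums of 3303 to 4035 CPM in control and 2344 to 3039 in the combination, and Mki67, which marks dividing cells, was lower by 2.88 on the log2 scale (-2.88 ± 0.46, adjusted p 2.97e-05). The part of these cell types and of dividing cells in the splicing factor values was not tested.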

How the data were processed

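Per the labels' protocols, polyadenylated RNA of digested, Percoll-separated tumour cells was amplified and read as 5′ tags on an Ion S5 sequencer. The authors deposited whole-number counts per gene symbol, 1 table for each of 12 libraries, without normalization. The tools listed, with no roles, per the submitters' processing notes are DESeq2, R 3.6.1 and Bowtie2 2.2.5, with the build mm10; how reads were assigned to genes, and whether by strand, is not given in the sources used here. Libraries held 133917 to 473273 counts. The 9032 symbols with at least 30 summed counts (96.8% to 98.2% of each library) were fitted with edgeR 4.0.16 in R 4.3.3, with TMM scaling, 1 mean for each of the 4 groups, and 7 comparisons (common dispersion 0.0523, a biological coefficient of variation of 22.9%; edgeR's default prior count). The floor ignores the groups. DESeq2 1.42.0 and limma 3.58.1 were alternatives, as were other filters, scaling, depth, a covariate, a replicate block and leaving out each library. The code was tested on simulated counts. Exact permutation of 3 against 3 libraries cannot give a p under 0.1, so none was used. Genes named are taken from Prpf19, the most abundant members, members and listed genes that passed, and those with the smallest p where none passed, plus Snw1, Cdc5l, Bcas2, Prpf31, Sf3b1, Srsf9, markers that went against their list and the neighbours of Srsf2 and Hnrnph2, which were chosen after their values were seen. The members, lists and tests were chosen with earlier results of these data known. Prpf19 was left out of every count of tests, and the values of some members are not reported here. Coordinates are from GENCODE M21, promoters from RefSeq (GRCm38.p6; 55 of 63 members matched).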

Additional observations from a re-analysis of the deposited data

How the results depend on the processing

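Counts of splicing factors past the threshold in minP1 and anti-PD-L1 against control and in the interaction were 0 in every alternative run. In the combination against control the count was 10, from 8 to 12 when leaving out each library, and 4 with the Bc1 and Lrrc17 covariate, of which 3 were among the 10. Against minP1 it was 7, from 3 to 10 when leaving out each library, and 3 with the covariate. Against anti-PD-L1 it was 0 and became 1 with the filterByExpr filter, DESeq2 size factors, the DESeq2 test, the replicate block, equal depth and a fit of 2 groups only; it ran from 0 to 2 when leaving out each library and was 2 with replicate 2 of minP1 and replicate 1 of anti-PD-L1 both left out, a setting chosen after seeing the data. For any difference among the groups it was 7, from 4 to 8 when leaving out each library, and 1 with the covariate; the covariate rises with the groups, and the cause was not tested. No named gene reversed its direction where it had passed; over all comparisons, 114 values of named genes lost and 63 gained a call, and 5164 stayed on their side of the threshold, most of them never past it. Under filterByExpr, which drops 8 of the 63 members, the median of all symbols in the combination moved from -0.19 to -0.06 and that of the members was -0.17. Whether the replicate numbers pair the libraries was not settled. Of 18 same-number pairs 5 correlated over 0.1, and the median r was 0.07, against -0.03 for pairs of other numbers. On average, 10 of 12 libraries correlated more with their own number than with others. With the replicate block 12 members passed in the combination against control and 9 against minP1. Depth limits members of few counts such as Sf3b5, Hnrnpr and Hnrnpa0, which had 8, 11 and 11 counts in the combination.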

Other observations

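The 2 lower members with the largest differences, Sf3b5 and Hnrnpa0, were the only members with a single annotated exon: 2 of the 6 lower genes, 0 of the 4 higher and 0 of the other 52. Among all tested symbols with a gene model, 127 of 8163 (1.56%) had 1 exon. Of those 127, 17.3% were lower and 7.87% higher in the combination than in control, with a median log2 difference of -0.25, against 12.5%, 10.7% and -0.19 for symbols with more exons. This grouping was noticed after the values were seen and was not tested.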
